A study of Mus musculus with 6 samples.

Results

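The genes described here are those of the potassium channel subunits of the mouse, measured by RNA sequencing in the right hippocampus after transient middle cerebral artery occlusion (tMCAO, 3 libraries) and after Sham surgery (3 libraries). They were defined by an annotation rule: protein-coding genes whose symbol begins with Kcn, a further letter and then a digit or letter. The rule was chosen with earlier results of these data known. This gave 94 of the 53465 genes in the deposited table, and 94 of its 22040 protein-coding genes. All mice were male C57BL/6J without a genetic modification named in the labels. In the tMCAO group a filament closed the artery on the right side for 50 min and was then withdrawn, as a model of ischemic stroke with reperfusion, and the labels give Sham for the other group with no further description. For the age of the mice and the time between surgery and dissection, the sources used here give no value. All animals were perfused with saline before the hippocampus was removed, and the libraries hold polyadenylated RNA isolated on oligo-dT beads.

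Potassium channels let potassium leave or enter the cell and thereby set the resting potential, the shape of the action potential and the rate of firing. Voltage-gated (Kv) channels open on depolarisation, calcium- and sodium-activated channels open when these ions enter the cell, inwardly rectifying (Kir) channels pass current best near the resting potential, and two-pore-domain (K2P) channels carry leak currents. In the hippocampus, neurons carry most Kv, calcium-activated and G-protein-gated Kir channels, astrocytes take up potassium through Kir channels, and microglia hold a resting K2P conductance. Accessory subunits, which form no pore, alter the trafficking and gating of the pore-forming subunits.

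Values are FPKM as deposited by the authors, that is, reads scaled by exon length and by 1 factor per library, and levels are set side by side between genes on this scale only. Differences are tMCAO minus Sham of log2(FPKM + 1) from limma, fitted across 17561 genes with a mean FPKM of at least 0.5. A gene was said to have risen or fallen where its Benjamini-Hochberg adjusted p was below 0.05. Of the 94 potassium channel genes, 77 passed the filter on low values and were tested, 10 were below it and 7 were not in the comparison table that the test used. Between 39029328 and 66160456 reads per library were assigned to genes, and the shallowest tMCAO library was deeper than the deepest Sham library.

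Some libraries stood apart in markers of neighbouring tissues and of the dentate gyrus, a part of the hippocampus itself. The summed FPKM of 14 markers of striatal medium spiny neurons was 116, 91.4 and 460 in tMCAO 1, 2 and 3, against 130, 554 and 148 in Sham 1, 2 and 3. The summed FPKM of 9 choroid plexus markers was 672, 398 and 44.2 in the tMCAO libraries, against 750, 64.6 and 842 in the Sham libraries. Sham 2 and tMCAO 3 were thus high in the striatal and low in the choroid plexus list, and neither list had a gene past the threshold. Markers of dentate granule cells summed to 54.2, 56.7 and 37.1 FPKM in tMCAO 1, 2 and 3, against 59.0, 45.9 and 63.2 FPKM in Sham 1, 2 and 3, with 2 of 6 tested genes called lower in tMCAO. These 2, Calb1 and Stxbp6, were the most abundant of the list and lowest of their group in neither tMCAO 3 nor Sham 2. The other genes of the list were lowest of their group in both, several by a wide margin. C1ql2 had 14.8, 12.9 and 0.725 FPKM in tMCAO and 7.53, 0.751 and 6.54 FPKM in Sham. Prox1 had 6.08, 5.82 and 1.75 FPKM in tMCAO and 6.21, 2.09 and 6.43 FPKM in Sham. Markers of the thalamus summed to 53.4, 48.3 and 21.2 FPKM in tMCAO, against 57.1, 19.2 and 60.7 FPKM in Sham, with 0 of 7 called. The same tMCAO 3 and Sham 2 were the lowest of their group in both of these lists, and the part of these lists in the channel differences was not tested apart from the striatal covariate and the omission of both libraries given further on. Of 8 markers of hippocampal pyramidal cells, 2 (Nptx1 and Bok) were called higher and 1 (Zbtb20) lower in tMCAO. These markers summed to 161 to 202 FPKM in tMCAO and 128 to 136 FPKM in Sham, of which Nptx1 alone averaged 87.2 and 57.6 FPKM. Markers of neurons in general summed to 1328 to 1692 FPKM in tMCAO and 1444 to 1544 FPKM in Sham, with 0 of 10 called. In bulk tissue, fewer cells of a type and less RNA per cell cannot be told apart.

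Among the 77 tested potassium channel genes, 3 rose and 8 fell after tMCAO. The genes that rose were Kcne4, an accessory subunit, Kcnab2, the beta subunit most abundant here, and Kcnk1, a K2P channel. The genes that fell were the pore-forming subunits Kcna6, Kcnb2, Kcnc1, Kcnma1, Kcnn3 and Kcnj12 and the modulatory subunits Kcng1 and Kcng3. The share of called members was 14.3%, against 16.2% of all tested genes. In tMCAO, 3.90% of members were called higher, against 8.93% of all tested genes, and 10.4% of members were called lower, against 7.28% of all tested genes. With each library rescaled to the same FPKM sum the split was 1 higher and 10 lower, with Kcnab2 and Kcnk1 no longer called and Kcna4 and Kcnj16 called lower. The same rescaling turned the split of all tested genes to 1052 higher and 1596 lower, against 1569 higher and 1278 lower without it.

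No member reached a log2 fold change of 1 in either direction on the log2(FPKM + 1) scale, which understates changes of low genes. Kcne4, for example, had a log2 fold change of 0.74 on that scale, 1.56 with a pseudocount of 0.1 and 1.77 with voom. The median over the 77 tested members was -0.16, against 3.06e-05 over all tested genes. The fold change was below 0 in 55 of 77 members (71.4%), against 50.0% of all tested genes, and in 55 to 63 members under 4 other scalings. The 63 belongs to rescaling to an equal sum, which also moved the median over all tested genes to -0.056. All 3 tMCAO libraries lay below all 3 Sham libraries in 20 members (26.0%, against 20.3% of all tested genes). All 3 lay above in 6 members (7.79%, against 23.1%). The unadjusted limma p was below 0.05 in 27 members (35.1%, against 36.0% of all tested genes), and in 10 members the adjusted p lay between 0.05 and 0.1. In each of the 11 called genes the 2 groups did not overlap, and the exact two-sided permutation test over libraries gave p = 0.10, the smallest value that 3 libraries against 3 allow.

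None of the 11 genes kept its call when Sham 1, Sham 2 or Sham 3 was left out, where 0, 1 (Kcne2) and 0 members passed limma's adjusted threshold. Calls over all tested genes fell away in the same fits, to 0.706%, 2.39% and 0.427% without Sham 1, Sham 2 and Sham 3, against 16.2% with all 6 libraries. With fewer libraries in these fits, 21, 22 and 15 members had an unadjusted p below 0.05, and the fold changes of the 11 genes kept their direction. Without tMCAO 1 or tMCAO 2, 6 members were called in each fit (7.79%), against 8.67% and 12.4% of all tested genes. Without tMCAO 3, 25 members were called (32.5%), against 22.2% of all tested genes. Without both Sham 2 and tMCAO 3, 15 members were called (1 higher, 14 lower), which is 19.5% against 12.1% of all tested genes, and of these 4 (Kcna6, Kcnc1, Kcne4 and Kcnma1) are among the 11. With the mean level of the striatal list as a covariate, 17 members were called (4 higher, 13 lower), including all 11, which is 22.1% against 22.0% of all tested genes.

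**Figure D1:**
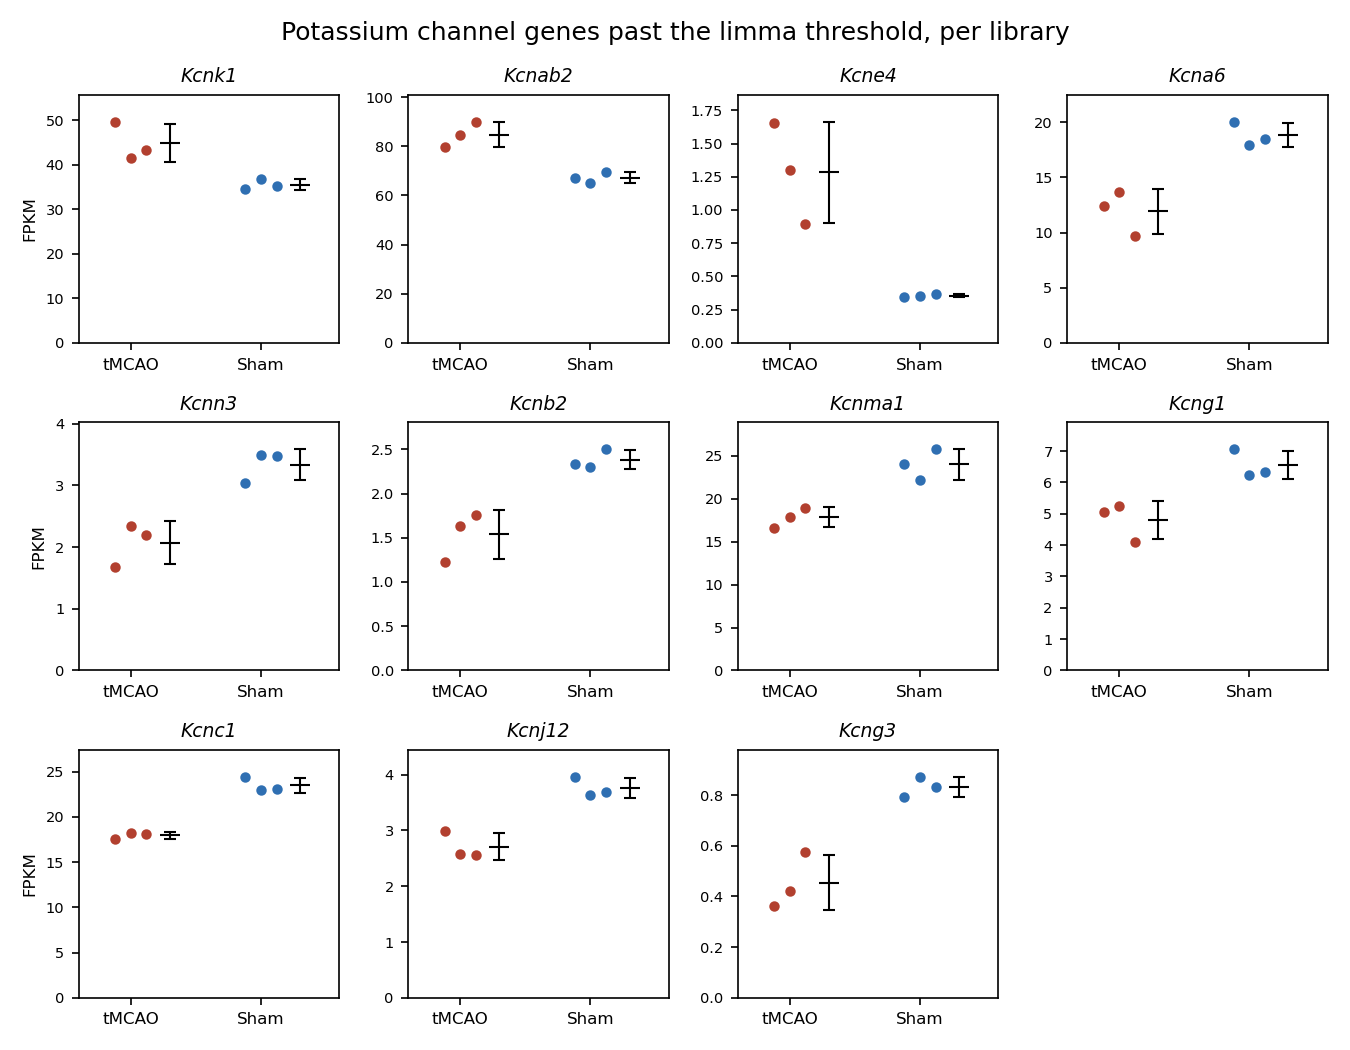
FPKM (vertical axes, each starting at 0) of the 11 potassium channel genes past the limma threshold, with 1 point per library for tMCAO (red, left) and Sham (blue, right) and the group mean with its SD in black. The tMCAO points lie above all Sham points for Kcnk1, Kcnab2 and Kcne4 and below all Sham points for the other 8 genes.

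The start regions of 3 of these genes are printed because they belong to the called members with the lowest adjusted p (Kcnc1), with the largest fold change (Kcne4) and to the pore of the large-conductance calcium-activated channel (Kcnma1). Each run holds 250 bases before and 50 bases after the transcription start of the gene's first entry in RefSeq (GRCm38.p6), 5′ to 3′ on the strand of the gene. The runs lie at chr7:46396218-46396517 (plus strand) for Kcnc1, chr14:24004156-24004455 (minus strand) for Kcnma1 and chr1:78816661-78816960 (plus strand) for Kcne4. The start used need not be the most upstream one. The Kcnma1 run lies inside the span given for that gene further on, whose upstream end is at 24014491. Capitals mark the GC box GGGCGG on either strand in Kcnc1 and Kcnma1, where 2 of the 3 matches in Kcnma1 overlap, and the palindromic E-box CACGTG in Kcne4.
Kcnc1: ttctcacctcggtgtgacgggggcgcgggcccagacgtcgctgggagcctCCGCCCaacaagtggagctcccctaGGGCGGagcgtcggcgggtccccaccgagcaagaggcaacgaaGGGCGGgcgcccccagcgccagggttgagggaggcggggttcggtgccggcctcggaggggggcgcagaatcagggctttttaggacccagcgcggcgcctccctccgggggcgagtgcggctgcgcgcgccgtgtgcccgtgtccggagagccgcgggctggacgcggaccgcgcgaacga
Kcnma1: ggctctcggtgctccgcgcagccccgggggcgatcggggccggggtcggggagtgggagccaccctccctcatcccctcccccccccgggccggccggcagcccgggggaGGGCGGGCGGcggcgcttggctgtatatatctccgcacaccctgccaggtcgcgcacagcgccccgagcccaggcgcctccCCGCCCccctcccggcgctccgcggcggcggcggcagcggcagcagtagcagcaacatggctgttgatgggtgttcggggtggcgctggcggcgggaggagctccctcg
Kcne4: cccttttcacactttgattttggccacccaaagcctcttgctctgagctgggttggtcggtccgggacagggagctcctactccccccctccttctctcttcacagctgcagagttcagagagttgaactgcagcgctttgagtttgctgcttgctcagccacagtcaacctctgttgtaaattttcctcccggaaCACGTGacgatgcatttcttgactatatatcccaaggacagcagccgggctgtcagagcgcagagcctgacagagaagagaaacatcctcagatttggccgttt
A window was found for 69 of the 94 members, and a GC box lay in 36 of them (52.2%), against 35.9% of 27025 windows of all genes. The windows of all genes were not restricted to protein-coding genes, as the members were, so the 2 sets are unlike. Among the 9 called members with a window, 4 held one. The TATA box letters TATAAA were found in 3 member windows (4.35%, against 14.2% of all windows). The cyclic AMP response element TGACGTCA was found in 0 member windows (against 1.88%), and CACGTG in 5 (7.25%, against 7.24%), all counted on both strands. A match of letters is a description of the sequence only, and binding was not measured.

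The Kv1 family forms axonal and juxtaparanodal channels that hold down excitability. Of its 8 genes, 6 were tested, 1 fell and the other 5 were not called, although all 6 fold changes were below 0 (5 of 6 after quantile normalization). Kcna6, the Kv1.6 pore-forming subunit (ENSMUSG00000038077, chromosome 6, 126708329 to 126740674, minus strand), had 12.4, 13.7 and 9.73 FPKM in tMCAO, against 20.1, 17.9 and 18.5 FPKM in Sham. Its groups did not overlap, with tMCAO 3 lowest. The log2 fold change was -0.63 (SE 0.12, limma adjusted p = 0.023). Kcna6 shares 39.6% of its exon length with the gene Gm26673 on the opposite strand, and its level is uncertain where the counting ignored strand.

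Kcna2, the most abundant Kv1 gene, had 18.4, 23.0 and 26.4 FPKM in tMCAO and 27.0, 27.1 and 29.1 FPKM in Sham. The groups were separate by a narrow margin and the test was not passed (log2 fold change -0.30, SE 0.13, limma adjusted p = 0.14). Kcna1, its frequent partner in axonal channels, averaged 16.1 ± 1.44 FPKM in tMCAO and 16.9 ± 0.867 FPKM in Sham (SD, n = 3 each), and the groups overlapped. Kcna4, an inactivating subunit named here after its values were seen, had 2.92, 4.32 and 3.77 FPKM in tMCAO, against 4.68, 6.73 and 6.10 FPKM in Sham (log2 fold change -0.55, SE 0.15, limma adjusted p = 0.054). Kcna10, below the filter, had 74 reads over the 3 tMCAO libraries and 16 over the 3 Sham libraries.

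The Kv beta subunits bind Kv1 channels in the cytoplasm and aid their surface and axonal targeting. Kcnab2 was the most abundant of all 94 genes (ENSMUSG00000028931, chromosome 4, 152390742 to 152477871, minus strand), with 79.7, 84.5 and 90.1 FPKM in tMCAO, against 67.1, 65.0 and 69.4 FPKM in Sham. All tMCAO libraries were above all Sham libraries, by a ratio of means of 1.26. The log2 fold change was 0.33 (SE 0.07, limma adjusted p = 0.031), and 0.26 with an adjusted p of 0.075 after rescaling to an equal sum. Kcnab1 averaged 14.5 ± 3.47 FPKM in tMCAO and 16.4 ± 3.48 FPKM in Sham, and Kcnab3 24.8 ± 5.24 and 22.3 ± 2.09 FPKM, with overlapping groups in both. Within the summed FPKM of the 3 beta subunits, Kcnab2 made up 69.4%, 71.6% and 64.7% in tMCAO, against 65.3%, 59.1% and 66.2% in Sham, so these shares overlapped.

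Kv2 channels are the main delayed rectifiers of the soma. Kcnb2, encoding Kv2.2 (ENSMUSG00000092083, chromosome 1, 15287254 to 15723750, plus strand), had 1.23, 1.63 and 1.75 FPKM in tMCAO, against 2.34, 2.30 and 2.50 FPKM in Sham. The groups were well apart, with a log2 fold change of -0.42 with an SE of 0.10 (limma adjusted p = 0.038).

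Kv3 channels repolarise the membrane fast enough for high firing rates and are known from fast-spiking interneurons. Kcnc1, encoding Kv3.1 (ENSMUSG00000058975, chromosome 7, 46396497 to 46438704, plus strand), had 17.5, 18.2 and 18.1 FPKM in tMCAO, against 24.4, 22.9 and 23.1 FPKM in Sham. The spread within each group was small beside the distance between them, and the gene fell by 0.37 on the log2 scale (SE 0.06, limma adjusted p = 0.017), the lowest adjusted p among the members. The other Kv3 genes were not called. The summed FPKM of 10 interneuron markers was 551 to 629 in tMCAO and 567 to 675 in Sham, with 1 of the 10 (Cck) called lower and 0 higher. Pvalb, also in this list, had 54.2, 46.3 and 41.0 FPKM in tMCAO and 44.3, 32.6 and 44.3 FPKM in Sham. The part of interneurons in the Kcnc1 difference was not tested.

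Kv4 channels carry the transient A-type current of dendrites, and KChIP proteins are their calcium-binding accessory subunits. None of the 3 Kv4 and 4 KChIP genes was called by limma or by voom on the recovered reads, and 1 of each family had an unadjusted p below 0.05. Kcnd2, the dendritic Kv4.2 subunit, had 13.8, 15.5 and 19.5 FPKM in tMCAO, against 19.9, 24.4 and 20.6 FPKM in Sham. The highest tMCAO library nearly met the lowest Sham library, and the log2 fold change of -0.40 (SE 0.14) had a limma adjusted p of 0.088. Kcnip3, the most abundant KChIP gene, had 42.2, 40.0 and 41.0 FPKM in tMCAO, against 34.6, 38.3 and 32.9 FPKM in Sham. Its tMCAO libraries were all higher, with a log2 fold change of 0.22 with an SE of 0.08 (limma adjusted p = 0.091).

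The electrically silent Kv subunits form no channel alone and join Kv2 subunits to change their gating. Of 10 such genes, 9 were tested and 2 fell. Kcng1 (ENSMUSG00000074575, chromosome 2, 168260117 to 168281736, minus strand) had 5.05, 5.23 and 4.10 FPKM in tMCAO, against 7.06, 6.25 and 6.32 FPKM in Sham (log2 fold change -0.38, SE 0.10, limma adjusted p = 0.046). Kcng3 (ENSMUSG00000045053, chromosome 17, 83585957 to 83631895, minus strand) had 0.364, 0.423 and 0.577 FPKM in tMCAO, against 0.793, 0.873 and 0.832 FPKM in Sham (log2 fold change -0.34, SE 0.09, limma adjusted p = 0.045). Both were close to the threshold, and in both the groups were separate. Because Kcng3 is low, the log2(FPKM + 1) scale understates its change, and its mean in Sham was 1.83 times its mean in tMCAO.

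Kcnf1, the most abundant silent subunit, had 20.6 to 23.8 FPKM in tMCAO and 23.6 to 27.8 FPKM in Sham, with a narrow overlap (limma adjusted p = 0.18). Kcnv1, named after its values were seen, had the largest fold change of any tested member without passing the test. Its values were 4.17, 9.34 and 13.2 FPKM in tMCAO, against 13.7, 20.1 and 16.2 FPKM in Sham. The tMCAO libraries differed widely among themselves, with tMCAO 1 lowest, and the log2 fold change of -0.94 had a 95% interval of -1.77 to -0.10 (limma adjusted p = 0.11).

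Single-span KCNE proteins assemble with Kv pores and change their gating, and Kcne4 is known to reduce currents of several Kv partners when expressed with them. Kcne4 (ENSMUSG00000047330, chromosome 1, 78816758 to 78820028, plus strand) had 1.66, 1.30 and 0.895 FPKM in tMCAO, against 0.344, 0.355 and 0.369 FPKM in Sham. Its lowest tMCAO library was far above its highest Sham library, and the ratio of means was 3.61, the largest among the tested members. The log2 fold change was 0.74 (SE 0.13, limma adjusted p = 0.019), and 1.56 with a pseudocount of 0.1. The authors' deposited table gives Kcne4 a log2 fold change of -1.85 as Sham over tMCAO, which is higher in tMCAO, with an adjusted p of 1.28e-07. Markers of pericytes and smooth muscle, cells that also hold potassium channel subunits, summed to 45.5 to 54.9 FPKM in tMCAO and 62.8 to 67.0 FPKM in Sham, and 2 of the 8 (Rgs5 and Atp13a5) were called lower and none higher. Markers of monocytes and macrophages went the other way, with sums of 11.1 to 15.6 FPKM in tMCAO and 6.13 to 7.72 FPKM in Sham. Of these, 2 of 5 tested genes were called higher and 0 lower. The part of either list in the Kcne4 difference was not tested. Kcne1l was not called (limma adjusted p = 0.85), and Kcne2 is given with the choroid plexus below.

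**Figure D2:**
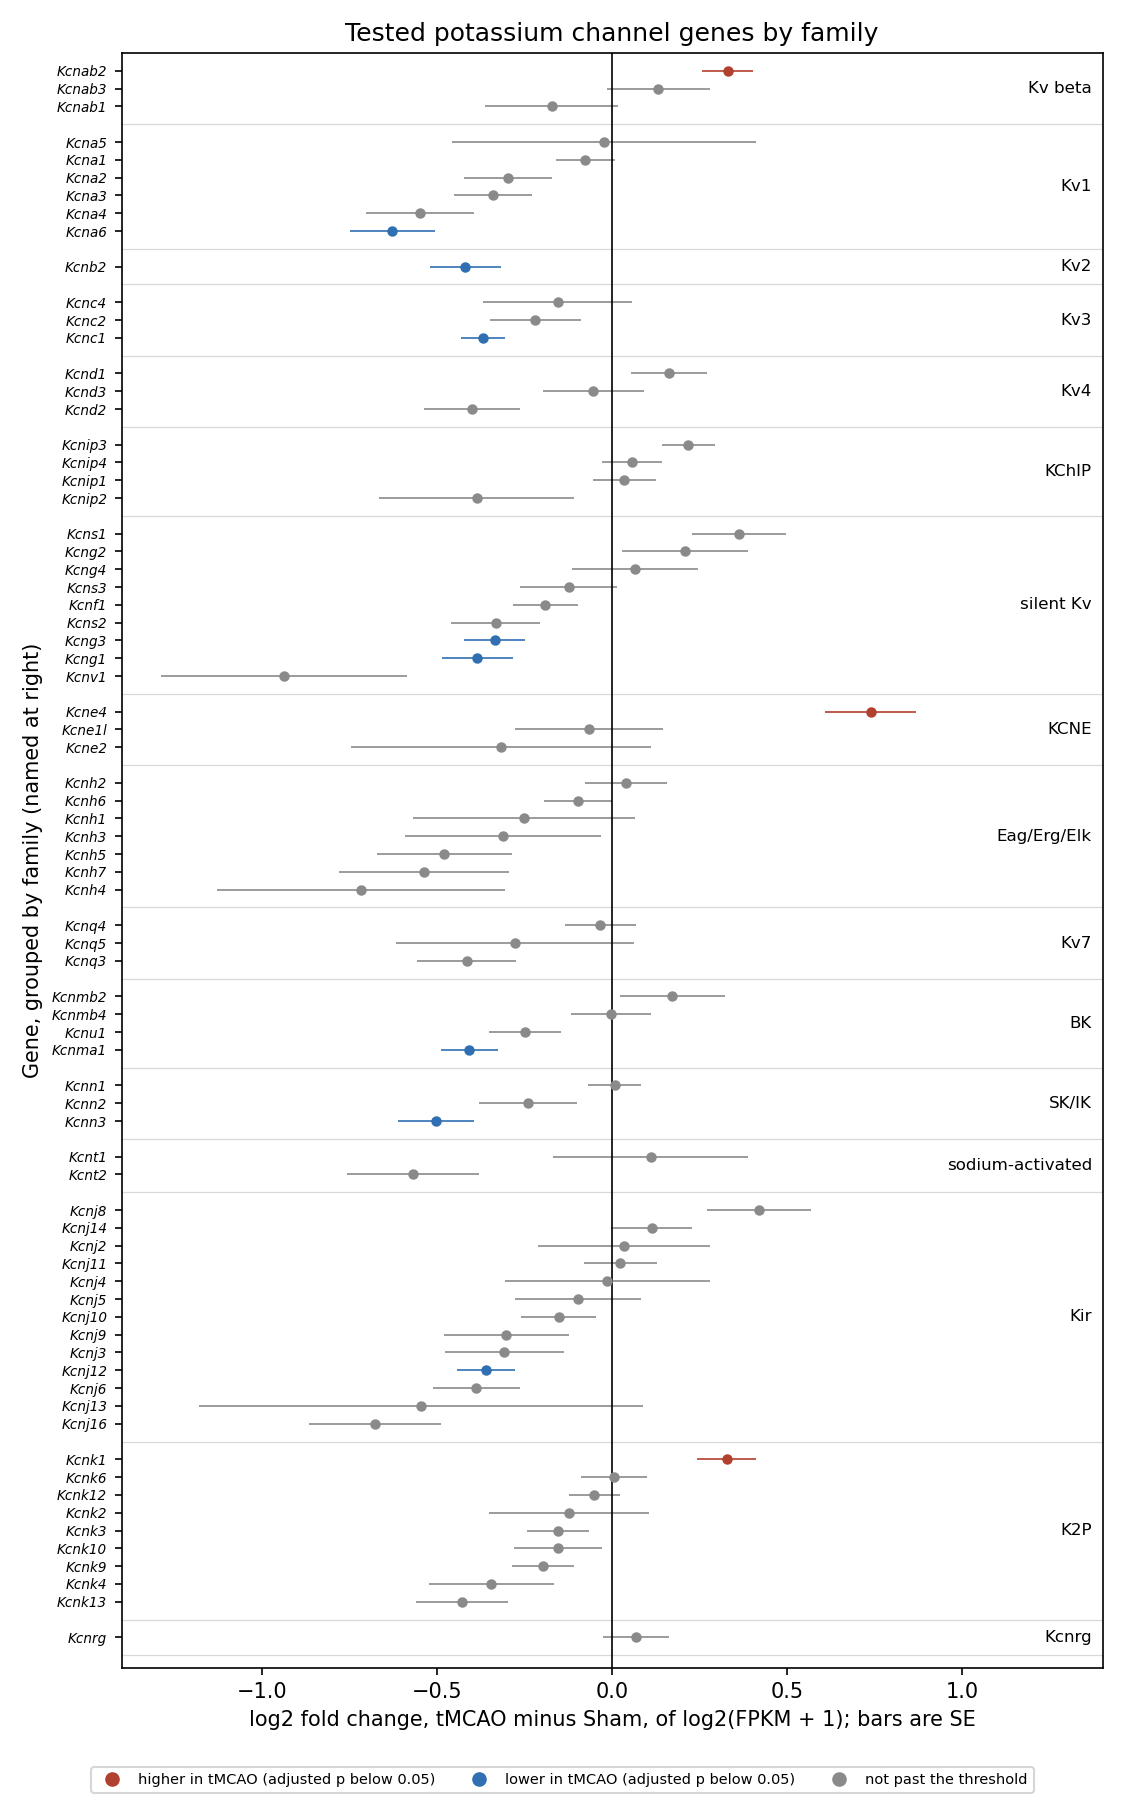
Log2 fold change of log2(FPKM + 1), tMCAO minus Sham (horizontal axis), for 74 of the 77 tested potassium channel genes, grouped by family. Points are limma estimates and bars their SE, in red where the gene was higher and in blue where it was lower in tMCAO past the threshold, and in grey otherwise. The 3 red points are Kcnab2, Kcne4 and Kcnk1, and 53 of the 74 points lie left of 0.

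The ether-a-go-go related genes (Kcnh) and the Kv7 genes (Kcnq), which carry the M-current that limits repetitive firing, had no called gene among 7 and 4 tested, with limma or with voom. In each family 1 gene had an unadjusted limma p below 0.05. Among the Kcnh genes 6 of 7 fold changes were below 0. Kcnh3, the most abundant, had 16.2, 19.8 and 34.4 FPKM in tMCAO and 24.2, 36.3 and 24.7 FPKM in Sham, with tMCAO 3 and Sham 2 highest. Kcnq3, an M-channel subunit, had 10.9, 13.2 and 16.6 FPKM in tMCAO, against 17.0, 18.5 and 19.0 FPKM in Sham. Its groups barely missed each other, with a log2 fold change of -0.41 with an SE of 0.14 (limma adjusted p = 0.085).

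Calcium-activated channels link calcium entry to repolarisation. Kcnma1, the pore-forming subunit of the large-conductance BK channel (ENSMUSG00000063142, chromosome 14, 23289431 to 24014491, minus strand), had 16.6, 17.9 and 19.0 FPKM in tMCAO, against 24.0, 22.2 and 25.8 FPKM in Sham. The groups were separate, and the gene fell by 0.41 on the log2 scale (SE 0.08, limma adjusted p = 0.025). Kcnmb4, the neuronal BK beta subunit, averaged 11.4 ± 1.71 FPKM in tMCAO and 11.4 ± 0.929 FPKM in Sham, with a 95% interval of the log2 fold change of -0.28 to 0.27. Other genes, mainly Kcnmb4os2, overlap 31.5% of its exon length. Kcnmb1, the smooth-muscle BK beta subunit, was below the filter, with 98 reads over the tMCAO libraries and 213 over the Sham libraries. Its values of 0.167, 0.118 and 0.109 FPKM in tMCAO were all below the 0.454, 0.445 and 0.317 FPKM in Sham, and in the fit without a filter it was the one called member of the 10 that the filter had removed (log2 fold change -0.31, SE 0.06, limma adjusted p = 0.022).

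Small-conductance SK channels carry the afterhyperpolarisation that follows a burst. Kcnn3, encoding SK3 (ENSMUSG00000000794, chromosome 3, 89520164 to 89675132, plus strand), had 1.68, 2.34 and 2.20 FPKM in tMCAO, against 3.05, 3.49 and 3.47 FPKM in Sham. All tMCAO libraries were lower, with a log2 fold change of -0.50 with an SE of 0.11 (limma adjusted p = 0.029). Kcnn2, the most abundant SK gene, averaged 4.61 ± 0.926 FPKM in tMCAO and 5.58 ± 0.654 FPKM in Sham and was not called (limma adjusted p = 0.26). Kcnn1 averaged 3.25 ± 0.205 FPKM in tMCAO and 3.23 ± 0.0562 FPKM in Sham. Kcnn4, the intermediate-conductance channel of activated immune cells, was very low in both groups, with 51 reads over the tMCAO libraries and 46 over the Sham libraries, and a mean of 0.0555 FPKM in tMCAO and 0.0709 FPKM in Sham.

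Neither sodium-activated channel was called by limma or voom, and 1 of the 2 had an unadjusted p below 0.05. Kcnt1, the more abundant, had 15.8, 14.9 and 30.3 FPKM in tMCAO and 15.8, 23.1 and 15.5 FPKM in Sham, and its 2 highest libraries were tMCAO 3 and Sham 2. Kcnt2, named after its values were seen, had 1.97, 3.15 and 4.17 FPKM in tMCAO, against 4.80, 4.85 and 5.13 FPKM in Sham (log2 fold change -0.57, SE 0.19, limma adjusted p = 0.081).

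Inward rectifiers were the largest family, with 15 genes, of which 13 were tested and 1 fell. Kcnj12, encoding Kir2.2 (ENSMUSG00000042529, chromosome 11, 61022564 to 61071131, plus strand), had 2.99, 2.57 and 2.57 FPKM in tMCAO, against 3.96, 3.63 and 3.68 FPKM in Sham. Its groups were separate, with a log2 fold change of -0.36 with an SE of 0.08 (limma adjusted p = 0.033). Kcnj4, the most abundant Kir gene and a member of the same strong-rectifier subfamily, had 44.9, 33.4 and 68.8 FPKM in tMCAO and 41.1, 65.9 and 39.2 FPKM in Sham, with tMCAO 3 and Sham 2 highest. Kcnj2 (limma adjusted p = 0.93) and Kcnj11, the pore of the neuronal ATP-sensitive channel (limma adjusted p = 0.89), overlapped between groups. The G-protein-gated genes were not called. Of these, Kcnj6, named after its values were seen, had 2.86, 3.23 and 4.10 FPKM in tMCAO, against 4.64, 4.29 and 5.24 FPKM in Sham, with separate groups and a limma adjusted p of 0.073.

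Of 14 K2P genes, 9 were tested and 1 rose. Kcnk1, encoding the leak channel TWIK1 of neurons and astrocytes (ENSMUSG00000033998, chromosome 8, 125995170 to 126030685, plus strand), was the most abundant, with 49.7, 41.6 and 43.4 FPKM in tMCAO, against 34.5, 36.9 and 35.2 FPKM in Sham. The groups were separate, with a ratio of means of 1.26 and a log2 fold change of 0.33 with an SE of 0.08 (limma adjusted p = 0.043). After rescaling to an equal sum the value was 0.26 with an adjusted p of 0.054. Kcnk2, encoding a mechanosensitive K2P channel, averaged 10.9 ± 2.93 FPKM in tMCAO and 12.0 ± 3.55 FPKM in Sham, with tMCAO 3 and Sham 2 highest. Kcnrg, a soluble regulator that forms no channel, averaged 0.656 ± 0.153 FPKM in tMCAO and 0.576 ± 0.0338 FPKM in Sham.

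Genes known from glia and vessels were named from a list whatever their values, but that list was made with earlier results of these data known. Kcnk13, the THIK1 channel that sets the resting potential of microglia, had 1.90, 1.78 and 1.18 FPKM in tMCAO, against 2.67, 2.19 and 2.66 FPKM in Sham. Its groups were separate, but the log2 fold change of -0.43 (SE 0.13) had a limma adjusted p of 0.065. In the same libraries 10 homeostatic and general microglial markers summed to 95.4, 122 and 101 FPKM in tMCAO and 132, 152 and 142 FPKM in Sham, and 6 of the 10 fell. Their part in the Kcnk13 difference was not tested. Kcnk6 averaged 1.03 ± 0.141 FPKM in tMCAO and 1.02 ± 0.133 FPKM in Sham. Kcna3, a Kv channel of activated microglia and lymphocytes, had 2.20, 2.64 and 2.07 FPKM in tMCAO, against 3.51, 2.71 and 3.35 FPKM in Sham (limma adjusted p = 0.077).

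Kcnj10, encoding Kir4.1, the astrocytic potassium-buffering channel, had 39.1, 38.8 and 30.7 FPKM in tMCAO and 42.5, 39.1 and 38.9 FPKM in Sham. The groups overlapped, and the 95% interval of the log2 fold change was -0.40 to 0.10. Its partner Kcnj16, encoding Kir5.1, had 3.91, 4.94 and 2.47 FPKM in tMCAO, against 6.76, 5.97 and 6.64 FPKM in Sham. All tMCAO libraries were lower, with tMCAO 3 lowest, and the log2 fold change of -0.68 (SE 0.19) had a limma adjusted p of 0.052. General astrocyte markers summed to 1050 to 1273 FPKM in tMCAO and 1142 to 1184 FPKM in Sham with 1 of 10 called in each direction, and 8 of 8 reactive astrocyte markers rose.

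Kcnj8, the pericyte Kir6.1 pore of the ATP-sensitive channel, had 2.65, 1.99 and 1.43 FPKM in tMCAO, against 1.33, 1.14 and 1.22 FPKM in Sham. Its groups were separate, and the log2 fold change of 0.42 (SE 0.15) had a limma adjusted p of 0.094. Abcc9, the sulfonylurea receptor that assembles with it, averaged 1.38 ± 0.128 FPKM in tMCAO and 1.45 ± 0.0729 FPKM in Sham, and its groups overlapped. Kcnj13, encoding the choroid plexus channel Kir7.1, had 3.87, 3.84 and 0.719 FPKM in tMCAO and 6.89, 0.991 and 6.99 FPKM in Sham. Kcne2, an accessory subunit of the same epithelium, had 1.07, 1.23 and 0.767 FPKM in tMCAO and 2.44, 0.178 and 2.89 FPKM in Sham. Both were lowest in the 2 libraries with the least choroid plexus marker RNA, and neither passed the test with all 6 libraries. Without Sham 2 and tMCAO 3 both were called lower in tMCAO. Kcne2 was also called lower without Sham 2 alone, and Kcnj13 with the striatal covariate. Kcnj13 also shares 49.1% of its exon length with Gigyf2 on the opposite strand.

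**Figure D3:**
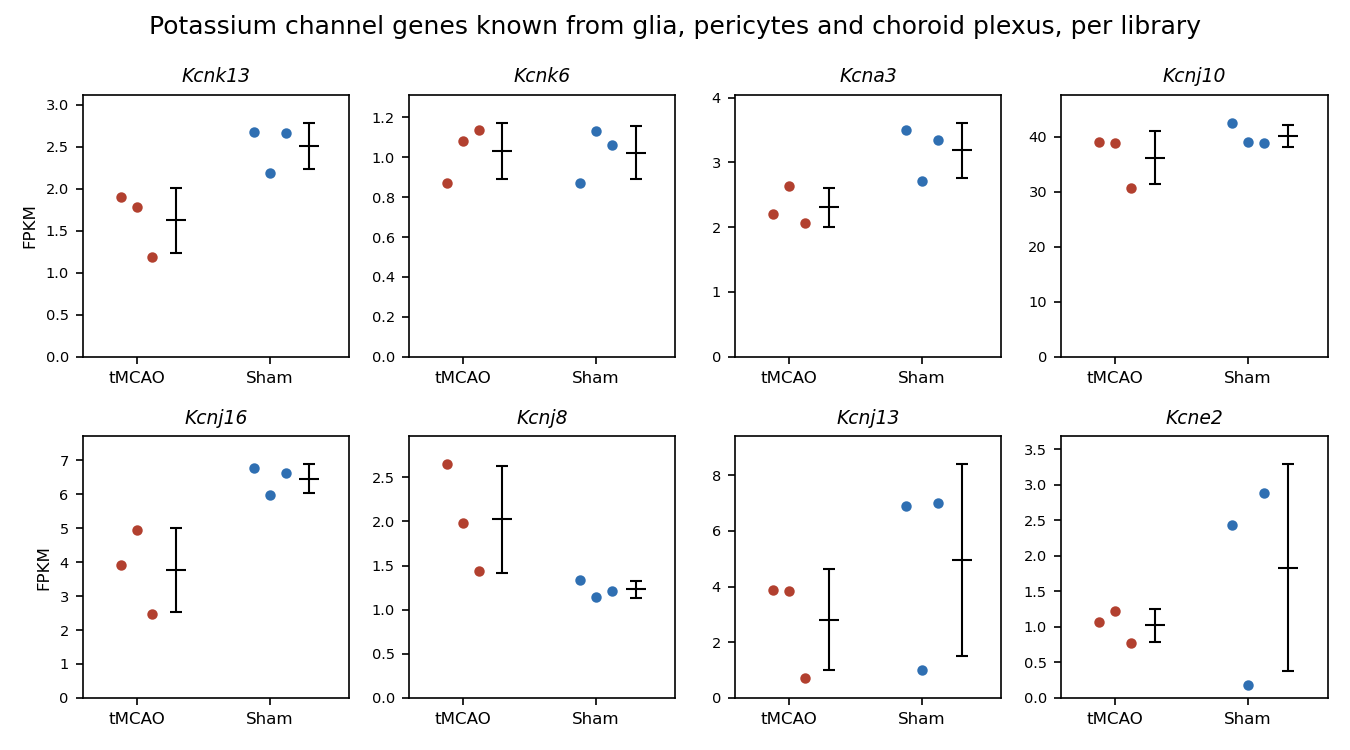
FPKM (vertical axes, each starting at 0) of 8 potassium channel genes known from microglia, astrocytes, pericytes or choroid plexus, with 1 point per library for tMCAO (red, left) and Sham (blue, right) and the group mean with its SD in black. None passed the limma threshold, while the groups of Kcnk13, Kcna3, Kcnj16 and Kcnj8 do not overlap and Kcnj13 and Kcne2 are low in Sham 2 and tMCAO 3.

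The libraries Sham 2 and tMCAO 3, chosen after an earlier analysis had set them apart, were both above the other 4 libraries in 17 of the 77 tested members (22.1%), against 10.4% of all tested genes. Among them were Kcna5, Kcnab1, Kcnab3, Kcnh1, Kcnh3, Kcnh4, Kcnh7, Kcnip2, Kcnj11, Kcnj2, Kcnj4, Kcnk2, Kcnk6, Kcnmb4, Kcnq5 and Kcnt1. Both libraries were below the other 4 in 11 members (14.3%), against 8.13% of all tested genes. The first pattern includes genes known from the striatum, such as Kcnip2 and Kcnj4, and the second includes Kcnj13 and Kcne2 of the choroid plexus. These genes were picked, and the other members of both patterns were not sorted by tissue. The second pattern also holds Kcnc4, Kcnd3, Kcng2, Kcng4, Kcnj14, Kcnj5, Kcnk10, Kcnmb2 and Kcns3. Some margins were small, as in Kcnk6 with 1.14 FPKM in tMCAO 3, 1.13 in Sham 2 and 1.08 in tMCAO 2. The part of tissue composition in these patterns was not tested. Kcnip2 had 15.6, 19.4 and 30.6 FPKM in tMCAO and 21.8, 38.1 and 25.7 FPKM in Sham. Kcnh4 had 1.84, 2.58 and 6.91 FPKM in tMCAO and 4.44, 9.56 and 5.23 FPKM in Sham. In both genes the SD within each group was larger than the difference between the groups' means. None of the 11 called genes shows either pattern, but this was fixed beforehand. Either pattern makes the groups overlap, and the groups of all 11 were separate.

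**Figure D4:**
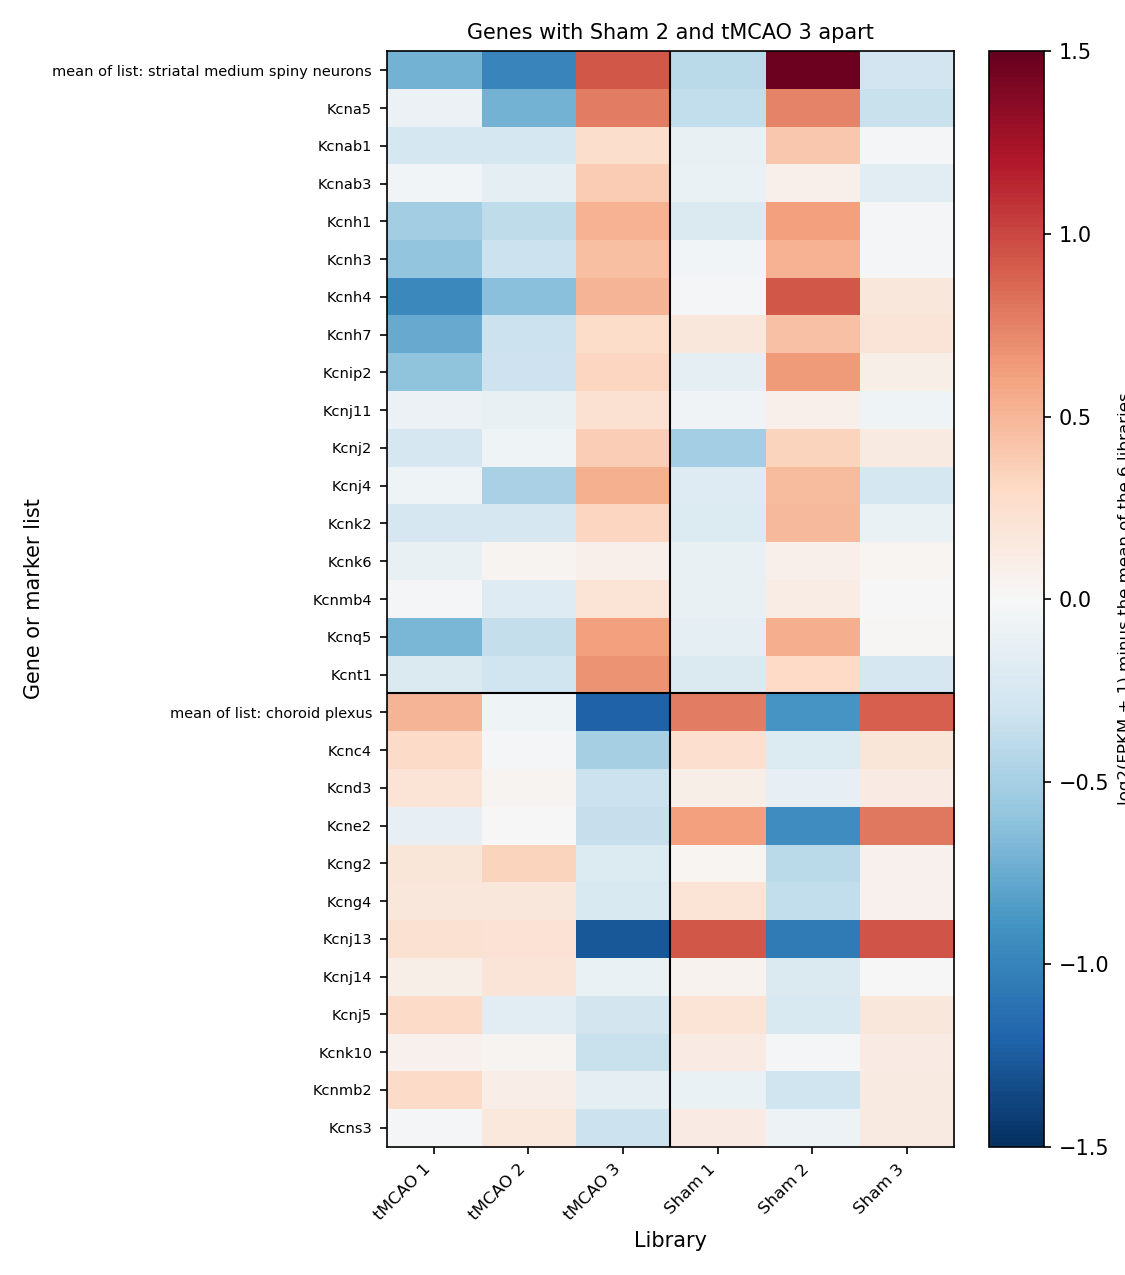
Deviation of log2(FPKM + 1) from the mean of the 6 libraries (colour, ending at -1.5 and 1.5) for potassium channel genes in which Sham 2 and tMCAO 3 were both above (upper block, 16 genes) or both below (lower block, 11 genes) the other 4 libraries. The first line of each block is the mean deviation of the striatal or choroid plexus marker list. In each gene these are the 2 highest or the 2 lowest of the 6 libraries.

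Proteins that scaffold, chaperone or regulate these channels formed a list of 26 genes outside the Kcn families. Of 25 tested with limma, 0 rose (against 8.93% of all tested genes), 3 fell (12.0%, against 7.28%) and 22 were not called, with a median log2 fold change of -0.10. At an unadjusted limma p below 0.05, 1 was higher and 6 were lower in tMCAO. These are 7 of 25, against 36.0% of all tested genes in either direction. Voom called 3, all lower, which is 12.0% against 14.1% of all tested genes in either direction. Lrrc55, an auxiliary gamma subunit of the BK channel, averaged 3.84 ± 0.669 FPKM in tMCAO and 7.41 ± 1.15 FPKM in Sham (limma adjusted p = 0.018). Ank3, the ankyrin that anchors Kv7 channels at the axon initial segment, averaged 11.4 ± 0.202 FPKM in tMCAO and 15.1 ± 1.13 FPKM in Sham (limma adjusted p = 0.025). Cntn2, an adhesion protein that helps cluster Kv1 channels beside the node, averaged 15.1 ± 0.332 FPKM in tMCAO and 19.9 ± 0.913 FPKM in Sham (limma adjusted p = 0.018).

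The authors' own comparison called more of the members. In the authors' deposited table, 4 of 87 members were higher in tMCAO at an adjusted p below 0.05, against 10.8% of its 22647 genes, and 16 were lower, against 9.41%. All 11 genes called here are among these 20 in the authors' deposited table. The other 9 in the authors' deposited table are Kcnj8, higher in tMCAO, and Kcna4, Kcnd2, Kcnj16, Kcnj6, Kcnk13, Kcnmb1, Kcnq3 and Kcnt2, all lower. Both comparisons use the same 6 libraries, so the overlap is no independent evidence.

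Fold changes in these libraries also varied with gene length. Over 10 classes of exon length, the median log2 fold change of protein-coding genes was 0.09 in the shortest and -0.12 in the longest class. The 8 members of the longest class had a median of -0.41. With this trend removed, Kcnma1 still passed, with a log2 fold change of -0.26 (limma adjusted p = 0.044), while Kcnb2 was no longer called and Kcnj16 was. The part of length in the differences of single members was not otherwise tested.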

How the data were processed

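RNA of the right hippocampus was sequenced in 3 tMCAO and 3 Sham libraries. The deposited values are FPKM computed by the authors on build mm10 (per the submitters' processing notes). For the aligner, counter and strand setting, and for the test behind the log2 fold changes and p-values in the authors' deposited comparison, the sources used here give no detail. The sign of the authors' deposited log2 fold change is Sham over tMCAO. Titles identify the Sham columns. The tMCAO columns carry the group's name only, so tMCAO 1 to 3 are column numbers. Whether each library is a separate animal is not stated in the labels, and p-values then reflect only the spread among these libraries, which may be technical.

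Genes of the comparison table with a mean FPKM of at least 0.5 were tested on log2(FPKM + 1) with limma 3.58.1 in R 4.3.3 (eBayes with trend, two-sided, Benjamini-Hochberg over 17561 genes, threshold 0.05), a procedure tested on simulated data. An exact permutation test over 20 assignments was run per gene. Whole reads were recovered from the FPKM steps in 100% of 36452 genes above 0 (tolerance 0.0001), and gave the depths and a count-based alternative with voom, which called 11 members and 2480 of all tested genes. At the exon length of GENCODE M21 they were whole in 94.1% of genes, and for the others reads are known only up to a common factor. Coordinates and exon overlaps come from GENCODE M21 (GRCm38). Intervals cover the spread between libraries.

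The members, lists, families and alternatives were chosen with earlier results of these data known. Genes were named where they passed the threshold, were the most abundant of their family, or had been listed whatever their values as genes of neurons, glia, pericytes or choroid plexus. Counts include 3 members that are not reported here singly or drawn in the figures. Alternatives covered the pseudocount, the filter, scaling, length, library weights, a striatal covariate, leaving out libraries and, added after seeing the data, a replicate block.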

Additional observations from a re-analysis of the deposited data

How the results depend on the processing

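Under a pseudocount of 0.1, no filter or a stricter one (mean FPKM of at least 2), other scalings, removal of the length trend, eBayes without trend, the table of all genes and voom, between 8 and 11 members were called, against 11 in the reported fit. This was 10.4% to 14.3% of the members tested, against 12.9% to 17.8% of all genes tested in these fits. Library weights gave 25 members (5 higher, 20 lower), which is 32.5%, and 4913 of all tested genes, which is 28.0%. The striatal covariate gave 17 members (22.1%, against 22.0% of all tested genes). With 1 library left out, the count ranged from 0 to 25 members, from 75 to 3896 of all genes and from 0 to 7 of the partner genes, and the 3 fits without a Sham library gave 0 partner genes each. Fewer libraries enter these fits. Kcnab2 and Kcnk1 lost their call under rescaling to an equal sum and under quantile normalization, Kcnk1 also under eBayes without trend, Kcng3 under quantile normalization and in the table of all genes, Kcng1 with no filter and with voom, and Kcnb2 with the length trend removed. The stricter filter left out Kcnb2, Kcne4 and Kcng3.

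No called gene changed its direction in any alternative. Some named genes not called in the reported fit were called elsewhere. Among them, Kcna2, Kcnd2, Kcnj16, Kcnj8 and Kcnq3 were called with library weights and without tMCAO 3. Calls over all tested genes were 28.0% and 22.2% in those fits. Kcnk13 was called with library weights, and Kcna3, Kcnd2, Kcnj16 and Kcnk13 with the striatal covariate. For other named genes that were not called, the sign of the log2 fold change turned under several settings, and the cause was not tested. Rescaling to an equal sum gave -0.043 for Kcnj11, -0.024 for Kcnj2 and -0.029 for Kcnk6. Removal of the length trend gave -0.0011 for Kcnj11 and -0.0099 for Kcnk6, and quantile normalization -0.021 for Kcnj11. Library weights gave -0.025 for Kcnj11, -0.020 for Kcnrg and -0.0042 for Kcnt1. The striatal covariate gave 0.21 for Kcnj4 and 0.051 for Kcnk2. Without Sham 2 and tMCAO 3 the value was 0.15 for Kcne1l, -0.040 for Kcnj11, -0.014 for Kcnrg and -0.023 for Kcnt1. With 1 library left out, values ran from -0.27 to 0.16 for Kcne1l, -0.083 to 0.083 for Kcnj11, -0.21 to 0.21 for Kcnj2, -0.28 to 0.23 for Kcnj4, -0.32 to 0.090 for Kcnk2, -0.048 to 0.064 for Kcnk6 and -0.20 to 0.29 for Kcnt1. The columns of both groups are numbered 1 to 3, and a fit with that number as a replicate block, chosen after seeing the data, called 1 member (lower), 632 of all tested genes and 0 partner genes, with none of the 11 genes among them. No label ties a number to a shared batch, litter or day. Deviations from the group means correlated at 0.31, -0.34 and -0.32 across genes in the pairs numbered 1, 2 and 3, and not every library correlated best with its own number. The highest value was 0.53, between tMCAO 3 and Sham 2. Deviations from a mean of 3 libraries depend on one another, so these correlations cannot decide whether a number marks a shared batch. Depth limits the members below the filter, which had at most 255 reads over the 3 tMCAO libraries and 213 over the 3 Sham libraries.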
